A study of Mus musculus with 8 samples.

Results

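The 10 genes Ptgs1, Ptgs2, Ptges, Ptges3, Hpgds, Hpgd, Alox5, Alox5ap, Ltc4s and Lta4h encode enzymes and an accessory protein of prostaglandin and leukotriene metabolism. Their transcripts were followed through all leukocyte clusters, tissues and times of a mouse stroke experiment. They were chosen by name as members of the pathway, with earlier results of these data known, and are 10 of 30406 genes that all libraries shared. For each gene, unique molecular identifiers (UMIs, each standing for a captured transcript) were summed per library and cluster and divided by all UMIs of those cells, giving CPM (UMIs of the gene per 1000000 UMIs). CPM was compared for the same gene between cells, never between genes, since detection differs by transcript.

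Prostaglandins and leukotrienes are short-lived lipid signals made from arachidonic acid, which phospholipases free from membranes. The cyclooxygenases (Ptgs1, Ptgs2) turn it into prostaglandin H2, from which terminal synthases make prostaglandin E2 (Ptges, Ptges3) or D2 (Hpgds), while Hpgd inactivates prostaglandins by oxidation. In the other arm, 5-lipoxygenase (Alox5) with its activating protein FLAP (Alox5ap) makes leukotriene A4, which Lta4h converts into the neutrophil attractant leukotriene B4 and Ltc4s into the cysteinyl leukotriene C4. Leukotrienes come mainly from myeloid cells, whereas most cell types can make prostaglandins.

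Leukocytes that were CD45+ but not stained by a CD45 antibody given intravenously (CD45iv-, that is, outside the blood stream) were sorted from brain parenchyma, pia mater and dura mater of adult male C57BL/6 mice and sequenced as single cells. The control libraries came from mice without stroke, 1 each for brain, pia and dura. The study's methods state that the controls of single-cell sequencing were naive wild-type mice, its results call them healthy and a figure legend sham. With naive controls, effects of stroke and of anaesthesia and surgery cannot be told apart. The title of the control pia sample names brain parenchyma, while its other labels name pia, and every pia 24 h to control ratio rests on this library. Stroke was a transient middle cerebral artery occlusion (MCAO), with 2 libraries from brain, 1 from pia and 1 from dura at 24 h, and 1 from brain at 72 h. The study states that animals were pooled for each compartment, but not which animals went into which library, so p-values measure only the spread between libraries. In the tests of 24 h against control, that spread includes the gap between the 2 brain 24 h libraries and any difference in response between tissues.

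The 8 libraries held 6591898 to 20754181 UMIs each, and 32457 cells carried a label in the study's annotation of 21 clusters. The second brain 24 h library and the brain 72 h library stood apart. They list 31053 genes in place of 32285. Their barcodes show 932 and 957 different first 6 bases against 478 to 480 in the other 6. The labelled kit versions do not follow this split, since dura 24 h is labelled version 3 like brain 72 h and the second brain 24 h library version 2. Control dura, control brain and the first brain 24 h library are also labelled version 2. The dura 24 h to control ratios and the brain 72 h to 24 h ratios below thus cross labelled kit versions, and kit and time cannot be told apart there. By gene list and barcodes, both dura libraries lie on the same side of the split. Ratios of the second brain 24 h library to control brain cross it, as do those of brain 72 h to the first brain 24 h library. There the split and time cannot be told apart. Of 32166 barcode sequences, 290 occurred in more than 1 library.

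The cluster names were checked against marker lists. In Granulo_2 the summed neutrophil markers averaged 203479 CPM (lowest library 122339, highest 308124), but in Granulo_1 they averaged 1376 CPM and the monocyte markers 4427 CPM. The name Granulo_1 thus goes against its markers and is used here only as a label. The macrophage clusters (CAM_1, CAM_2, Macro_1, Macro_2) carried the markers of the list named Microglia at 25077 CPM in control brain, 11086 and 2721 CPM in the brain 24 h libraries and 1520 CPM in brain 72 h, against 1010 to 1776 CPM in pia and dura. Those of the list named Border macrophages were at 10.1 to 355 CPM in brain and at 1985 to 2810 CPM in pia and dura. Of its 4 genes, 1 was at 0 in control brain and 2 in the first brain 24 h library. In control brain and the first brain 24 h library the name macrophage thus goes against these markers and is used only as a label. CPM of the macrophage clusters is therefore given per library below. The shares of UMIs and the tests against macrophage clusters pool brain and meninges. In those 2 brain libraries, microglia clusters are thus compared with cells that carry microglia markers too. With pia only, a choice made after seeing the data, the calls of Ptgs1 (+1.53 log2 units) and Ptgs2 (−2.23) between microglia and macrophage clusters held.

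Across clusters, Ptgs1, Ptgs2, Hpgds, Hpgd and Ltc4s had their highest means in microglia or macrophage clusters, whereas Alox5ap and Lta4h were highest in granulocyte clusters and Alox5 in mast cells. Microglia clusters held 24.7% of all annotated UMIs but 75.1% of the 10272 UMIs of Ptgs1, 63.3% of the 13676 of Hpgds and 62.9% of the 19256 of Ltc4s. Hpgd was divided between microglia (51.1% of 8255 UMIs) and macrophage clusters (40.0%). Granulocyte clusters (Granulo_1 and Granulo_2) gave 28.7% of the 48151 UMIs of Alox5ap and 35.7% of the 3078 of Lta4h, from 13.2% of all UMIs. These shares, and the tests of granulocyte clusters below, pool Granulo_2 with the monocyte-marked Granulo_1. In brain 72 h, for example, Granulo_1 had 1315 cells and Granulo_2 373, so these results are not those of neutrophils alone. Macrophage clusters, with 33.0% of all UMIs, gave 45.0% of the 1640 of Ptgs2 and 41.8% of the 2116 of Alox5.

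**Figure D1:**
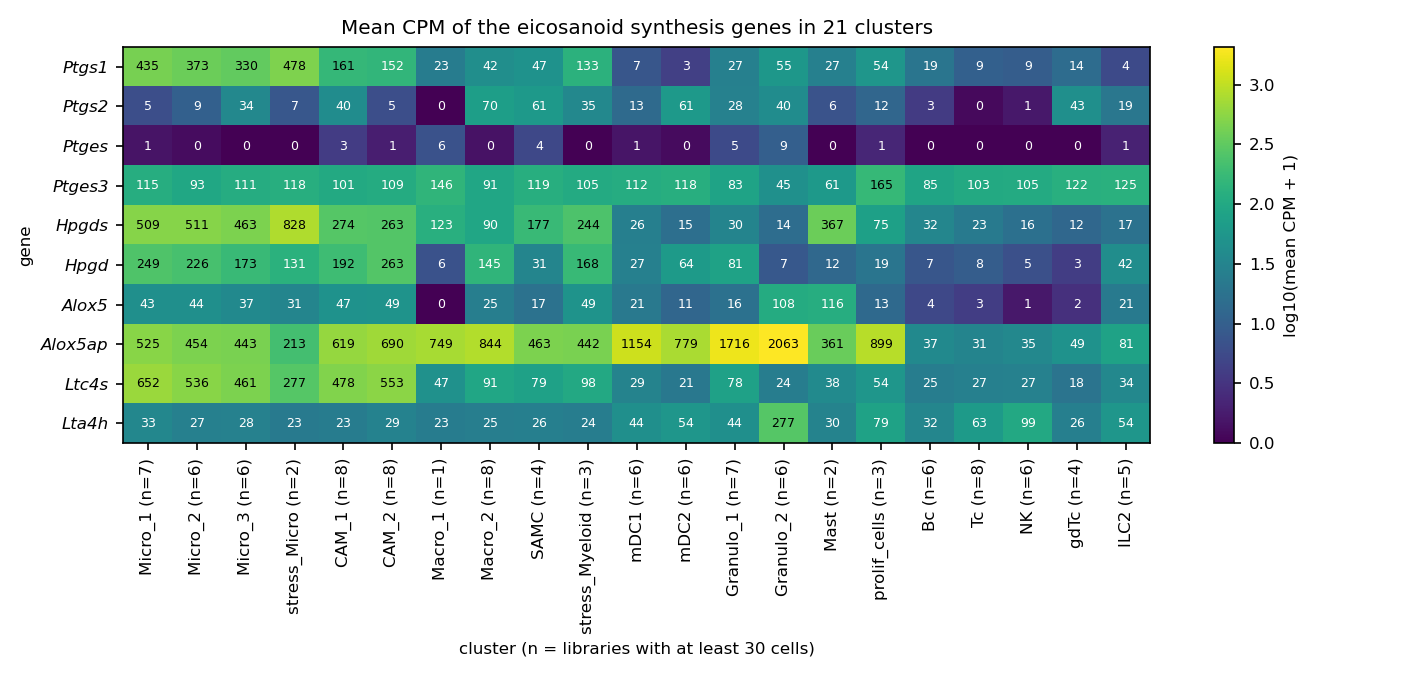
Mean CPM of each of the 10 genes (rows) in each of the 21 clusters (columns), over those libraries in which the cluster had 30 cells or more, printed in the cell and coloured by log10(mean CPM + 1). Ptgs1, Hpgds, Hpgd and Ltc4s share high values in microglia and CAM clusters, and Alox5ap and Lta4h peak in Granulo_1 or Granulo_2.

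The cluster profiles of Ptgs1 and Ltc4s were the most alike of the 45 pairs of listed genes, with a Pearson correlation of log2(mean CPM + 5) of 0.90 over 21 clusters. Ptgs1 with Hpgds gave 0.87, Hpgd with Ltc4s 0.86 and Hpgds with Ltc4s 0.84. The lowest value was −0.61 for Hpgds with Lta4h. These are descriptions across clusters that share libraries and depth.

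The sequences just upstream of 5 of the genes are shown as examples from the cluster patterns that follow: microglia (Ptgs1), Ptgs2, Hpgd, and the leukotriene enzymes of Granulo_2 (Alox5, Lta4h). Each is the 250 bases before the annotated start in RefSeq's mouse build GRCm38.p6, read 5′ to 3′ on the gene's strand, with GAGGAA or its reverse complement TTCCTC (the core of sites for PU.1, the lineage factor of myeloid cells) and TTGCGCAA (the C/EBP palindrome) in capitals.
Ptgs1 chr2:36230176-36230425 (+): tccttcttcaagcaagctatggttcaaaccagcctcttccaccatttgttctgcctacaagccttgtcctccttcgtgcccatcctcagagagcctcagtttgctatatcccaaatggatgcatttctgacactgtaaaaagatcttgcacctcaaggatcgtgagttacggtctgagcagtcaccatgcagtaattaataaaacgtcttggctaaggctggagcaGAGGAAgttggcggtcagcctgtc
Ptgs2 chr1:150099781-150100030 (+): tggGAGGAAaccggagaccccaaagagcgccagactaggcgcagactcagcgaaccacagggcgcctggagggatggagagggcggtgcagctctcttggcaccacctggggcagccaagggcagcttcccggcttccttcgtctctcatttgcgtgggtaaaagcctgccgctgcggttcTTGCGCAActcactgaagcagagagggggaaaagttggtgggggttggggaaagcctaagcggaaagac
Hpgd chr8:56294302-56294551 (+): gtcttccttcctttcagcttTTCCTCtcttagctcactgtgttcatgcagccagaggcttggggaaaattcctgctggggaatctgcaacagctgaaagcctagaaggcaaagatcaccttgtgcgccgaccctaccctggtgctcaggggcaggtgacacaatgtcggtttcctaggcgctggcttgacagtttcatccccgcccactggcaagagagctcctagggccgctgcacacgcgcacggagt
Alox5 chr6:116461179-116461428 (−): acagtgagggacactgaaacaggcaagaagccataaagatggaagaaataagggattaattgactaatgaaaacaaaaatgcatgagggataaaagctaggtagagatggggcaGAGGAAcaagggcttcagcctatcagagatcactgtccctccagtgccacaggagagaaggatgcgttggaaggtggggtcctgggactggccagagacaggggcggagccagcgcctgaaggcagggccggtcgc
Lta4h chr10:93453146-93453395 (+): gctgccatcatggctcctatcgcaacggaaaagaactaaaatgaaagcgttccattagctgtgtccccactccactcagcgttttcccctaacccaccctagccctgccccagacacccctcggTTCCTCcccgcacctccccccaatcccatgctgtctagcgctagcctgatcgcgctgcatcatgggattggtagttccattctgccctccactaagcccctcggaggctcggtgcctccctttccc
GAGGAA lies 24 to 19 bases before the start in Ptgs1, 247 to 242 in Ptgs2 and 136 to 131 in Alox5, and on the other strand 230 to 225 bases before it in Hpgd and 126 to 121 in Lta4h. TTGCGCAA lies 69 to 62 bases before the start of Ptgs2. On either strand, GAGGAA occurred in the windows of 7 of 9 listed genes found in the table and in 23.3% of all 32851 windows, and TTGCGCAA in 1 of 9 and 0.164%. The 12 motifs searched on both strands also included GAGGAAGT, which contains the PU.1 core (2 of 9; 2.44% of all windows), the AP-1 site TGACTCA (0 of 9; 4.46%), the CRE core CGTCA (0 of 9; 17.8%), the TATA box TATAAA (0 of 9; 12.4%) and the CCAAT box (1 of 9; 33.8%). The remaining motifs were the E-box CACGTG (0 of 9; 6.02%), the GC box GGGCGG (5 of 9; 32.7%), the RUNX site TGTGGT (3 of 9; 14%), the MEF2 site (0 of 9; 0.103%) and the SMAD site CAGAC (4 of 9; 42.2%). The motifs in capitals were chosen after the matches were seen, and a match is a string of letters, not a measured binding site. All 5 genes shown carry GAGGAA, whereas the windows of Ltc4s and Ptges3, which are not shown, do not. Ltc4s and Hpgds, whose window carries GAGGAA, also had most of their UMIs in microglia clusters but were left out of the display.

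Ptgs1, the constitutive cyclooxygenase (ENSMUSG00000047250, GRCm38 chr2:36230426-36252272, plus strand), had its highest means in the microglia clusters. Its mean was 478 CPM ± 91.6 (SD, n = 2 libraries) in stress_Micro, 435 ± 236 (n = 7) in Micro_1, 373 ± 191 (n = 6) in Micro_2 and 330 ± 134 (n = 6) in Micro_3, against 161 ± 131 (n = 8) in CAM_1 and 3.30 ± 2.38 (n = 6) in mDC2. Within the 2 libraries that held stress_Micro, Micro_1 was the higher of the pair, so the order of these means depends on the libraries each includes. Micro_1 was above Micro_2 in 6 of 6 libraries by more than the SD of the difference, whereas Micro_2 and Micro_3 did not differ beyond that spread. In the sum of the microglia clusters, Ptgs1 stood at 485 CPM in control brain, 476 and 593 CPM in the brain 24 h libraries and 456 CPM in brain 72 h. It stood at 251 and 252 CPM in control and 24 h pia, and at 137 and 89.9 CPM in dura. Microglia of the 4 brain libraries were thus all above those of the meninges, and the share of all genes that do so is not given here. The microglia clusters of the meninges held microglia markers at 2059 to 13676 CPM, against 10457 to 30840 CPM in brain. In dura they were only 51 and 76 cells with mast cell markers at 942 and 240 CPM.

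In the macrophage clusters Ptgs1 followed another order by tissue and time. It was at 375 CPM in control brain, 271 and 89.2 CPM at 24 h and 28.5 CPM at 72 h, the same order as the microglia markers given above, whose part in it was not tested. In control and 24 h pia it was at 59.9 and 79.9 CPM, a ratio of 1.33 (95% counting interval 1.13 to 1.58). Within pia clusters the ratio was 1.31 (1.03 to 1.68) in CAM_1, 0.947 (0.625 to 1.45) in CAM_2 and 1.09 (0.799 to 1.49) in Macro_2. The class sum thus also depends on the mix of clusters. In dura Ptgs1 was at 49.1 and 61.3 CPM, a ratio of 1.25 (0.974 to 1.61). Against macrophage clusters of the same libraries, microglia clusters had 1.45 more log2 units of Ptgs1 (SE 0.42, 8 of 8 libraries, edgeR adjusted p = 0.0373). A gene is said here to be called, or to have risen or fallen, at an adjusted p under 0.05 with at least a 2-fold difference. The call was lost without the second brain 24 h library (1.25, adjusted p = 0.105), without control pia (1.36, 0.0637) and without pia 24 h (1.44, 0.0602). With libraries of the longer gene list only the difference was 0.89 log2 units (adjusted p = 0.00136), under 2-fold, and without the library block it was 1.28 (0.180).

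Ptgs2, the inducible cyclooxygenase (ENSMUSG00000032487, chr1:150100031-150108227, plus strand), was sparse and uneven between libraries. Its highest cluster mean, 70.5 CPM ± 79.7 (SD, n = 8) in Macro_2, rested on 265 CPM in the first brain 24 h library, where the cluster had 56 cells. The other 7 libraries lay between 24.7 and 61.7 CPM. SAMC, the study's stroke-associated myeloid cells, averaged 61.4 ± 70.8 CPM (n = 4), mDC2 60.6 ± 26.0 (n = 6) and gdTc 43.3 ± 36.7 (n = 4). Tc averaged 0.206 CPM from 1 UMI in all, and Macro_1 was at 0 in its 1 library. Only mDC2 against gdTc differed beyond the spread among these leading neighbours, in 4 of 4 libraries.

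In brain, Ptgs2 was higher at 24 h than in control in both class sums, and at 72 h it lay below both 24 h libraries. The macrophage clusters read 9.07 CPM in control, 42.7 and 66.9 CPM at 24 h and 15.2 CPM at 72 h. The 24 h to control ratios were 4.71 (95% counting interval 2.08 to 13.2) and 7.37 (3.20 to 20.9). The microglia clusters read 1.97 CPM in control, 8.33 and 33.9 CPM at 24 h and 6.71 CPM at 72 h. The ratios were 4.24 (2.19 to 8.86) and 17.3 (9.35 to 34.9). Most 24 h UMIs of these clusters came from Micro_3, which had 1 UMI in control and 32 and 60 at 24 h. Micro_1 had 6 in control and 4 and 7 at 24 h, with ratios of 0.972 (0.202 to 4.10) and 8.16 (2.35 to 29.4). Micro_2 had 5 in control and 5 and 5 at 24 h, with ratios of 1.19 (0.274 to 5.18) and 2.32 (0.534 to 10.1). Both ratios of a class share the single control brain library. In pia the macrophage value was 57.5 CPM in control and 31.9 CPM at 24 h, a ratio of 0.554 (0.444 to 0.690). In dura it was 29.4 and 27.2 CPM, a ratio of 0.925. The difference between tissues was not tested. Over all tissues, microglia clusters had 1.46 fewer log2 units of Ptgs2 than macrophage clusters (SE 0.33, lower in 6 of 8 libraries, edgeR adjusted p = 0.00528). This call was lost when only libraries of the longer gene list were used (−1.66, adjusted p = 0.0607), without the library block (−1.23, 0.296) and with library-size scaling (−1.22, 0.0543).

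**Figure D2:**
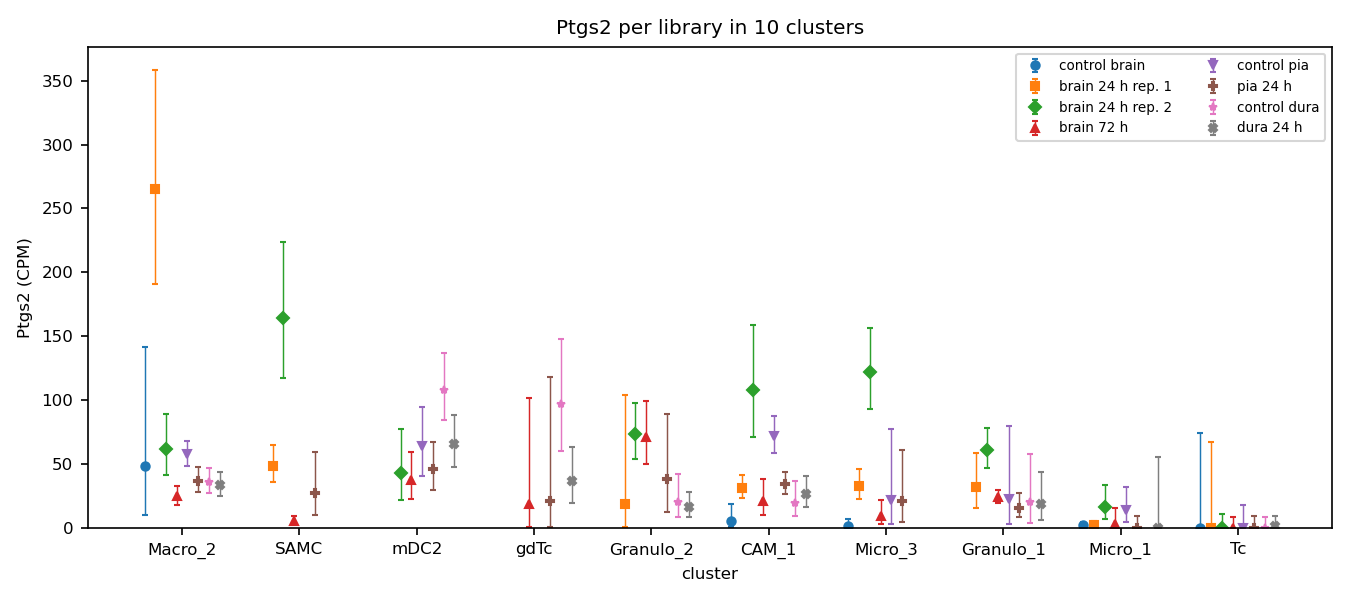
Ptgs2 in CPM per library (points) in 10 clusters, with 95% exact Poisson intervals that cover counting error only. The first brain 24 h library lies at 265 CPM in Macro_2 and the other libraries between 24.7 and 61.7 CPM.

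Of the prostaglandin E synthases, Ptges, the inducible microsomal enzyme (ENSMUSG00000050737, chr2:30889471-30929863, minus strand), was close to undetected, with 73 UMIs in 63 cells of all 32457. Its highest mean was 9.21 CPM ± 14 (SD, n = 6) in Granulo_2, which rested on 2 UMIs in 47 cells of the first brain 24 h library. Without it the mean was 3.61 CPM and Macro_1 led with 5.85 CPM, from 1 UMI. Ptges3, the cytosolic synthase that is also the HSP90 co-chaperone p23 (ENSMUSG00000071072, chr10:128058954-128077272, plus strand), was present in every cluster, from 44.7 ± 34.3 CPM (n = 6) in Granulo_2 to 165 ± 101 (n = 3) in proliferating cells. Its highest values came from the same pair of libraries in several clusters. Tc read 197 CPM in the second brain 24 h library and 175 CPM in brain 72 h against 22.4 to 105 CPM elsewhere. The macrophage clusters read 188 and 168 CPM against 62 to 91. These are the 2 libraries with the shorter gene list, and the part of that difference in the values was not tested.

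Hpgds, the haematopoietic prostaglandin D synthase (ENSMUSG00000029919, chr6:65117293-65144908, minus strand), marked microglia and, in dura, mast cells. The means were 828 CPM ± 18.7 (SD, n = 2) in stress_Micro, 511 ± 246 (n = 6) in Micro_2, 509 ± 261 (n = 7) in Micro_1 and 463 ± 164 (n = 6) in Micro_3. They were followed by 367 ± 164 (n = 2) in Mast and 274 ± 146 (n = 8) in CAM_1, with 11.7 CPM in gdTc at the bottom. The microglia neighbours did not differ beyond their spread, but Mast exceeded CAM_1 in both dura libraries. Microglia clusters held 561 CPM in control brain, 366 and 812 CPM at 24 h and 698 CPM at 72 h. The brain 24 h libraries thus lay on either side of the control. In macrophage clusters the values were 464 CPM in control brain, 237 and 227 CPM at 24 h and 112 CPM at 72 h. They were 213 and 133 CPM in control and 24 h pia and 136 and 130 CPM in dura. Microglia exceeded macrophage clusters in 7 of 8 libraries by 0.73 log2 units (SE 0.30), which was not called.

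Mast cells, found in dura only at 30 cells or more (63 in control, 93 at 24 h), had 2.61 more log2 units of Hpgds (SE 0.31, edgeR adjusted p = 1.54e-15) and 1.89 more of Alox5 (SE 0.41, adjusted p = 4.85e-05) than all other annotated cells of the same libraries. Hpgds read 483 and 251 CPM in mast cells of control and 24 h dura, and Alox5 72.4 and 160 CPM. Hpgd (−3.46, SE 0.76), Alox5ap (−1.26, SE 0.29) and Ltc4s (−1.64, SE 0.52) were lower there, with adjusted p of 7.29e-05, 0.000196 and 0.0124. Thus 2 of 9 listed genes tested rose and 3 fell, against 5.16% and 10.2% of all 9646 genes, whose median difference was −0.41. The fit has 2 libraries and 1 residual degree of freedom, DESeq2 called 3 of the 9, and the mast markers summed to 135428 and 143756 CPM. This cluster also led the basophil markers (1399 to 1947 CPM over the 2 libraries) and the eosinophil markers (0 to 3126 CPM). Their part in these values was not tested.

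Hpgd, the 15-hydroxyprostaglandin dehydrogenase that inactivates prostaglandins (ENSMUSG00000031613, chr8:56294585-56321043, plus strand), was the listed gene with the most regular difference between control and stroke libraries. By cluster it averaged 263 CPM ± 200 (SD, n = 8) in CAM_2, 249 ± 101 (n = 7) in Micro_1, 226 ± 80.0 (n = 6) in Micro_2 and 192 ± 149 (n = 8) in CAM_1, neighbours that did not differ beyond their spread. It averaged 3.01 CPM in gdTc. In CAM_2 it read 499 CPM in control brain, 83.2 and 100 CPM at 24 h and 11.9 CPM at 72 h. In pia it read 511 CPM in control and 174 CPM at 24 h, and in dura 442 and 287 CPM. The 3 control libraries therefore lay above all 5 libraries after MCAO in this cluster, and the share of all genes that do so is not given here.

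The macrophage clusters as a whole held 358 CPM of Hpgd in the control library of brain, 276 in that of pia and 302 in that of dura. After MCAO they held 70.7 and 89.2 CPM in the brain 24 h libraries, 107 in pia 24 h, 161 in dura 24 h and 32.7 in brain 72 h. The 24 h to control ratios were 0.197 (95% counting interval 0.160 to 0.243) and 0.249 (0.191 to 0.322) in brain, 0.389 (0.347 to 0.435) in pia and 0.533 (0.471 to 0.602) in dura. In brain, the microglia markers of these clusters, given above, were also lower in each library after MCAO than in control. Their part in these ratios was not tested. The microglia clusters went from 366 to 215 and 141 CPM in brain, with 171 CPM at 72 h. They went from 343 to 152 CPM in pia and from 395 to 210 CPM in dura. Control and 24 h libraries did not overlap in either class, and the share of all genes separated in this way is not given here. The dendritic clusters (mDC1, mDC2) held 133 CPM in control pia and 10.1 CPM at 24 h, and 52.5 and 21.1 CPM in dura. The granulocyte clusters held 199 and 6.74 CPM in pia and 56.4 and 12.3 CPM in dura. These came nearly all from Granulo_1, whose markers go against its name: 23 of 23 and 5 of 6 UMIs in control and 24 h pia, and 27 of 28 and 12 of 13 in dura. The dendritic values rest on 67 and 12 UMIs in pia and 67 and 26 in dura.

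**Figure D3:**
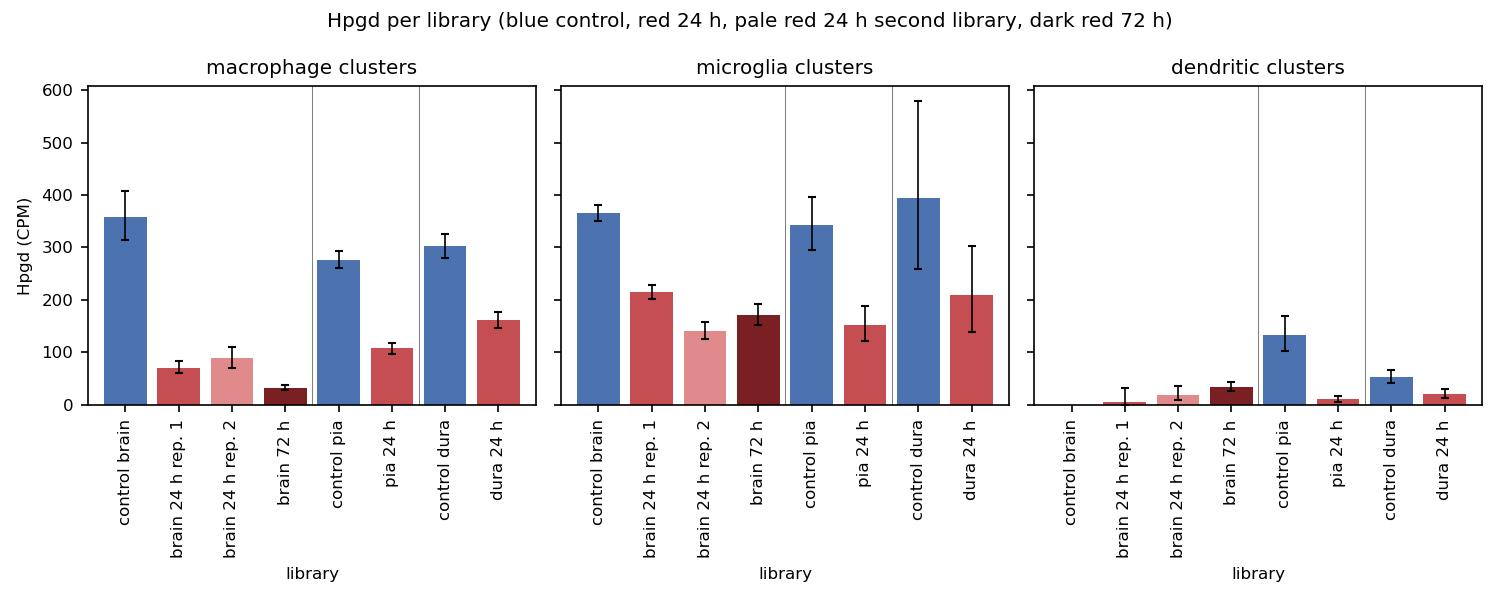
Hpgd in CPM per library (bars, with 95% exact Poisson intervals) in the macrophage, microglia and dendritic clusters. The control libraries hold 276 to 358 CPM in the macrophage clusters and the 24 h libraries 70.7 to 161 CPM, and control brain, with under 30 dendritic cells, has no bar in the dendritic panel.

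Across the 42 pairs of a cluster in a 24 h library and in the control library of its tissue, Hpgd was lower at 24 h in 38 and higher in 2, and 29 of the lower values lay outside the counting error. Of 6458 genes with a cluster mean of at least 50 CPM, 38 (0.588%) were lower in as many pairs, and the median gene was lower in 18. Ltc4s was lower in 30 pairs and Hpgds in 26, while Alox5ap was higher in 27. The brain pairs share their control library and the clusters share libraries, so the 42 pairs are not replicates.

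With tissue as a covariate, edgeR gave Hpgd a 24 h minus control difference of −1.64 log2 units in macrophage clusters (SE 0.34, 4 of 4 pairs lower), which was not called (unadjusted p = 0.00217, adjusted p = 0.945), as was no other gene there (0% of 9486). The differences were −1.09 (SE 0.36) in microglia, −2.51 (SE 0.70) in dendritic and −3.40 (SE 0.96) in granulocyte clusters, each lower in all pairs and none called. Control brain did not enter the dendritic and granulocyte fits, so their pairs were those of pia and dura only. Without control pia or pia 24 h the dendritic difference was −1.24 or −1.26 and the granulocyte difference −2.04 or −2.05. Without control dura or dura 24 h the granulocyte difference was −4.87 or −4.82, and the dendritic −3.90 or −3.89. Over all annotated cells it was −1.66 (SE 0.41, adjusted p = 0.988), where fewer cells of a type and less RNA per cell cannot be told apart. DESeq2 on the same counts called Hpgd in macrophage clusters (−1.65, adjusted p = 0.0343) and over all cells (−1.67, 0.0464). With pia and dura only, a choice made after seeing the data, edgeR called it in both (−1.20, adjusted p = 0.00238, and −1.51, 4.15e-08). It was also called in both without the second brain 24 h library (−1.57, 0.0380, and −1.48, 0.0252). Dissociation and stress genes moved the same way in the macrophage clusters, from 16025 to 7369 and 6502 CPM in brain, from 4282 to 2845 CPM in pia and from 2501 to 1727 CPM in dura. Their part in the Hpgd values was not tested.

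Shares of cells with a Hpgd UMI pointed the same way after each cell was thinned to 1000 UMIs, which leaves out shallower cells. In CAM_2 they were 38.9% in control pia and 16.4% in pia 24 h (unthinned 38.6% and 21.1%). There 198 of 293 and 123 of 294 cells were left out, and the median depths were 750 and 1155 UMIs. In brain they were 29.3% in control, 8.42% and 8.70% at 24 h and 1.42% at 72 h (unthinned 39.2%, 12.1%, 13.5% and 3.58%). T cells, which served as background, had 1.03% in control pia and 0 of 161 cells in pia 24 h, which allows a share of up to 1.86%.

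Between the dendritic clusters, mDC2 had 2.01 more log2 units of Hpgd than mDC1 (SE 0.34, 6 of 6 libraries, edgeR adjusted p = 0.000594). This was the only call among 8 listed genes tested, where 5.94% of 6985 genes were called higher and 3.09% lower (9.03% in all). Without the library block it was not called (+1.92, adjusted p = 0.274). The values per library rose from 110 to 141 CPM in control pia, from 14.1 to 90.9 in control dura, and from 3.1 to 18.3 CPM in pia 24 h. They rose from 1.8 to 37.4 in dura 24 h, from 6.5 to 35.3 in the second brain 24 h library and from 24.1 to 60.1 CPM in brain 72 h. Ptgs2 was also higher in mDC2 in 6 of 6 libraries (+2.37, SE 0.72), with an adjusted p of 0.0913 in edgeR and 0.000864 in DESeq2.

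Alox5, the 5-lipoxygenase that starts leukotriene synthesis (ENSMUSG00000025701, chr6:116410077-116461178, minus strand), was highest in Mast at 116 CPM ± 62.3 (SD, n = 2) and Granulo_2 at 108 ± 23.5 (n = 6, 84.1 to 148), and next in CAM_2 at 49.2 ± 41.6. Granulo_2 exceeded CAM_2 beyond the spread, in 5 of 6 libraries. The lead of Mast rested on dura 24 h (160 CPM): in control dura Mast was at 72.4 CPM and Granulo_2 at 148 CPM, and without dura 24 h Granulo_2 led at 105 CPM. The lowest means were 0.659 CPM in NK cells and 0 in Macro_1, which rests on 1 library. Lta4h, which makes leukotriene B4 (ENSMUSG00000015889, chr10:93453411-93484875, plus strand), stood at 277 ± 110 CPM (n = 6) in Granulo_2, above NK cells at 98.9 ± 19.8 in 5 of 5 libraries. In stress_Micro it was at 22.6 CPM. Alox5ap, encoding FLAP (ENSMUSG00000060063, chr5:149264767-149288153, plus strand), was at 2063 ± 804 CPM (n = 6) in Granulo_2 and 1716 ± 520 in Granulo_1, which did not differ beyond their spread. It stood next at 1154 ± 320 in mDC1 and down to 30.6 ± 19.5 in Tc.

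The leukotriene B4 enzymes separated Granulo_2, which carries the neutrophil markers, from Granulo_1. In the order first and second brain 24 h, brain 72 h, pia 24 h, control dura and dura 24 h, Alox5 went from 0 to 93.0, 4.8 to 99.0, 6.7 to 102, 11.8 to 84.1, 19.8 to 148 and 3.8 to 124 CPM. In the same order Lta4h went from 54.2 to 149, 62.0 to 247, 51.5 to 245, 48.7 to 199, 19.8 to 426 and 48.9 to 396 CPM. No Granulo_1 value of either gene reached a Granulo_2 value, and the share of all genes separated in this way is not given here. Ptgs2 in the same order went from 31.9 to 18.6, 61.0 to 73.4, 23.9 to 71.4, 15.8 to 38.2, 19.8 to 20.3 and 18.8 to 16.5 CPM. edgeR gave differences of +4.40 log2 units for Alox5 (SE 0.34, adjusted p = 4.15e-15) and +2.98 for Lta4h (SE 0.28, adjusted p = 2.93e-11). The edgeR differences are scaled by TMM and CPM is not, so their sizes need not match the CPM values. Ptgs1 (+2.04, 5 of 6 libraries, adjusted p = 9.99e-06) and Ptgs2 (+1.23, 4 of 6, 0.00152) rose too, and Hpgd fell (−2.74, 4 of 6, 4.49e-05). That makes 4 of 10 listed genes higher and 1 lower where 15.6% and 18.9% of 6123 genes were called (34.5% in all). The clusters were made by the study from the same counts, so these tests say how evenly libraries show the difference, not that the clusters are separate types. Alox5ap, in contrast, was higher in Granulo_2 in 3 of 6 libraries and differed by less than 2-fold (+0.70, SE 0.23, adjusted p = 0.0095).

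**Figure D4:**
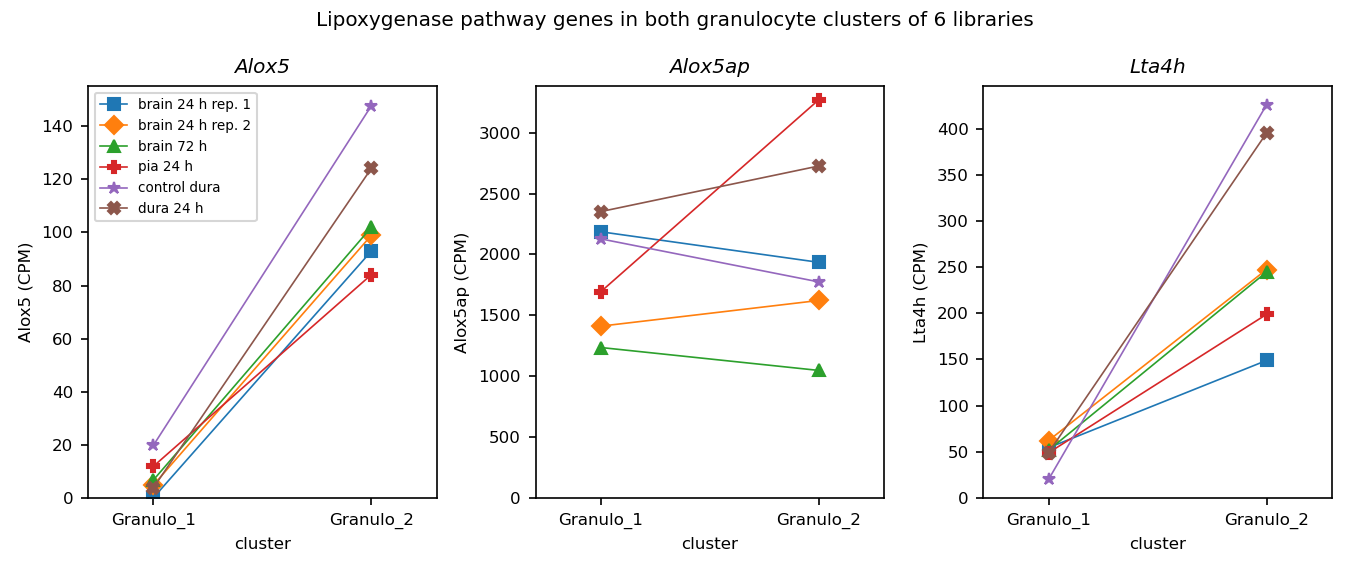
Alox5, Alox5ap and Lta4h in CPM in Granulo_1 and Granulo_2, with 1 line per library for the 6 libraries that hold 30 cells of both. All 6 lines climb for Alox5 and Lta4h, whereas 3 of 6 climb for Alox5ap.

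Against macrophage clusters, granulocyte clusters (Granulo_1 and Granulo_2 summed) had more Alox5ap (+1.37 log2 units, SE 0.23, adjusted p = 0.00138) and Lta4h (+2.44, SE 0.46, 0.00557) in 7 of 7 libraries. They had less Hpgds (−3.35, 0.00193), Ltc4s (−2.79, 0.0103), Hpgd (−1.91, 0.0173) and Ptgs1 (−1.09, 0.0499, lower in 5 of 7). That is 2 of 10 listed genes higher and 4 lower, with 7.63% and 9.36% of 10170 genes called (17% in all). The call of Ptgs1 was lost in 6 of 7 fits that left out a library, and that of Hpgd without dura 24 h (adjusted p = 0.0506). Without the library block Hpgd (−1.96, 0.0919) and Ltc4s (−2.44, 0.0761) were not called.

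In the macrophage clusters of brain, Alox5 was low and Alox5ap high in the 72 h library. Alox5 read 31.7 CPM in control brain, 30.3 and 17.8 CPM at 24 h and 1.41 CPM at 72 h, the last being 0.0467 and 0.0793 times the 24 h values. Alox5ap over the same libraries read 526, 493, 543 and 730 CPM, the last being 1.48 and 1.35 times the 24 h values. With a single 72 h library these ratios have no replicate. In pia Alox5 was 53.4 CPM in control and 88.2 at 24 h, a ratio of 1.65 (95% counting interval 1.39 to 1.96), and Alox5ap 628 and 1035 CPM, also 1.65 (1.57 to 1.73). In dura Alox5ap was 700 and 952 CPM, a ratio of 1.36 (1.28 to 1.45). None of these was called in the test over tissues.

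Ltc4s, the leukotriene C4 synthase (ENSMUSG00000020377, chr11:50236461-50238616, minus strand), had its highest means in microglia and CAM clusters. The means were 652 CPM ± 373 (SD, n = 7, 296 to 1259) in Micro_1, 553 ± 349 (n = 8) in CAM_2, 536 ± 208 (n = 6) in Micro_2 and 478 ± 285 (n = 8) in CAM_1, neighbours that did not differ beyond their spread. Macro_2 held 91.3 ± 40.1 CPM and gdTc 17.7 CPM. This order did not hold in each library. Granulo_1 of control pia held 432 CPM, from 39 UMIs. In brain 72 h, CAM_1 (58.5 CPM) and CAM_2 (37.3 CPM) lay below Macro_2 (71.9 CPM). In microglia clusters Ltc4s read 909 CPM in control brain, 928 and 244 CPM at 24 h and 505 CPM at 72 h. The 2 brain 24 h libraries thus differed from each other more than the first did from the control. Macrophage clusters read 729, 324, 68.0 and 52.7 CPM in the brain libraries and 257 to 431 CPM in the meninges. There the 24 h to control ratios of the class sums were 0.927 in pia and 0.917 in dura. Within pia the ratio was 0.733 in CAM_1, 0.735 in CAM_2 and 0.638 in Macro_2. In dura it was 0.699, 0.862 and 0.750 in the same order. The mix of clusters also enters the class sums: in pia CAM_1 had 574 and 859 cells, and Macro_2 1044 and 832. Microglia exceeded macrophage clusters in 8 of 8 libraries (+0.75 log2 units, SE 0.38), which was not called.

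SAMC differed from the summed macrophage clusters of the same libraries by less Hpgd and less Alox5. In the first and second brain 24 h, brain 72 h and pia 24 h libraries, with 301, 120, 485 and 95 SAMC, Hpgd read 31.4, 24.6, 8.25 and 59.4 CPM, against 70.7, 89.2, 32.7 and 107 CPM in macrophage clusters. Alox5 read 3.25, 8.21, 0.868 and 54.8 CPM, from 3, 2, 2 and 12 UMIs, against 30.3, 17.8, 1.41 and 88.2 CPM. In brain 72 h not every macrophage cluster lay above SAMC. Hpgd was there at 52.2 CPM in CAM_1, 57.4 in Macro_2, 11.9 in CAM_2 and 5.85 in Macro_1. Alox5 was at 4.18, 1.61, 0.821 and 0 CPM in the same order. In the class sums all 4 libraries went the same way for both genes. The differences were −1.46 log2 units for Hpgd (SE 0.23, edgeR adjusted p = 0.000249) and −1.53 for Alox5 (SE 0.36, adjusted p = 0.0131). These 2 of 9 listed genes tested fell and none rose, where 1.95% and 0.398% of 9557 genes were called (2.34% in all). The median of the 9 was −0.99 beside −0.05 for all genes.

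The other listed genes were not called in SAMC. Alox5ap read 129, 168, 677 and 877 CPM there, lower than in macrophage clusters in 4 of 4 libraries (−0.99, SE 0.27, adjusted p = 0.0533). Ptgs1 was lower in 4 of 4 (−1.04, 0.379) and Ltc4s in 3 of 4 (−1.21, 0.283). Hpgds read 133, 328, 150 and 95.9 CPM against 237, 227, 112 and 133 CPM, higher in SAMC in 2 of 4 libraries. Ptgs2 was uneven, at 48.7, 164, 5.21 and 27.4 CPM against 42.7, 66.9, 15.2 and 31.9 CPM. Microglia markers in SAMC summed to 5715, 4023, 1668 and 1909 CPM, against 11086, 2721, 1520 and 1010 CPM in the macrophage clusters. Their part in the differences was not tested. With the libraries of the longer gene list only, which leaves 2, neither gene was called (Hpgd −0.97, adjusted p = 0.260), and neither was without the library block (Hpgd −1.42). Alox5 also lost its call without the first brain 24 h library (−0.98, adjusted p = 0.219), without brain 72 h (−1.56, 0.0545), without pia 24 h (−2.06, 0.0942) and in DESeq2 (−1.46, 0.193). Without brain 72 h, Hpgd, Ptgs1, Alox5ap and Ltc4s were called.

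**Figure D5:**
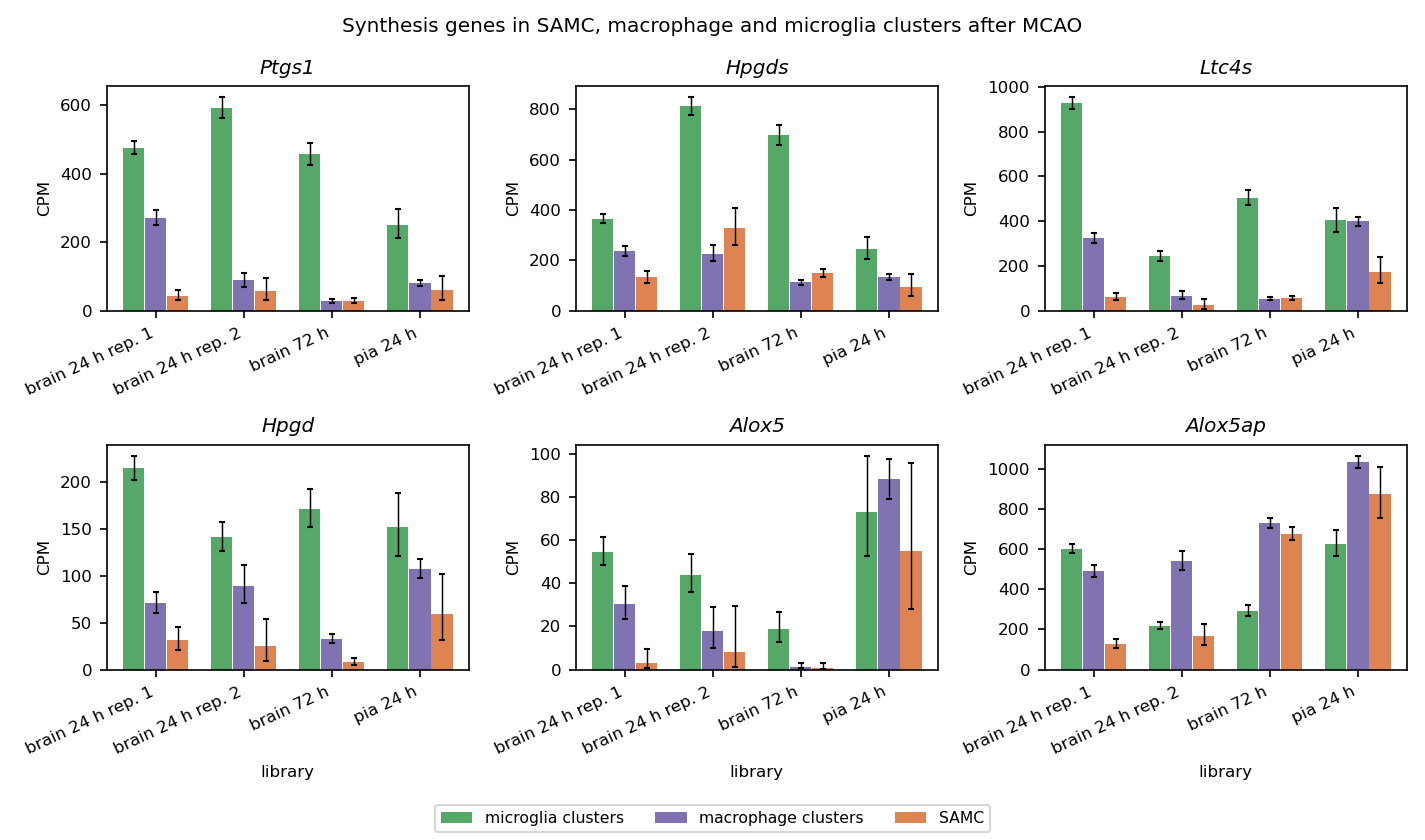
CPM of 6 listed genes in the microglia clusters, the macrophage clusters and SAMC (bars, with 95% exact Poisson intervals) in the 4 libraries with at least 30 SAMC. Hpgd and Alox5 are lower in SAMC than in macrophage clusters in all 4 libraries.

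In the tests of 24 h against control, edgeR called 0 listed genes in every class, and 0% of all genes. The listed genes tested were 10 over all cells, 9 in macrophage, 9 in microglia, 7 in dendritic, 9 in granulocyte and 6 in lymphoid clusters, of 11945, 9486, 6847, 6950, 6228 and 7251 genes. In the same order, 409, 459, 181, 178, 107 and 107 genes had an unadjusted p under 0.05, and DESeq2 called 63, 17, 7, 2, 5 and 0 genes, Hpgd among them over all cells and in macrophage clusters. Dura against pia macrophage clusters also gave 0 calls among 9 listed and 9486 tested genes (0%), with 169 genes at an unadjusted p under 0.05 and 15 called by DESeq2. Hpgd was there 0.42 log2 units higher in dura (SE 0.45), or −0.15 without dura 24 h. Between microglia and macrophage clusters, Ptgs1 and Ptgs2 were the 2 of 10 listed genes called, 1 in each direction, against 4.66% of 11048 genes called higher and 5.77% lower (10.4% in all). ILC2 against Tc gave 0 of 6 listed genes where 6.78% of 5294 genes were called higher and 6.93% lower, 1526 had an unadjusted p under 0.05 and DESeq2 called 0 listed genes. Alox5ap was higher in ILC2 in 4 of 5 libraries by 0.99 log2 units (SE 0.34, adjusted p = 0.0295), just under 2-fold.

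For each listed gene, up to 2 genes with the most similar cluster profile were named by Pearson correlation of log2(mean CPM + 5) over 21 clusters. They were Atp2c1 (0.93) and P2ry13 (0.93) for Ptgs1, Slco2b1 (0.96) and Sgce (0.95) for Hpgds, Fez2 (0.96) and Slc46a1 (0.95) for Ltc4s, and Lifr (0.92) for Hpgd. For the leukotriene genes of granulocytes they were Rab32 (0.92) and Pirb (0.91) for Alox5ap, Pglyrp1 (0.94), a neutrophil granule protein, and Cep19 (0.85) for Lta4h, and Mboat7 (0.84), which reattaches arachidonic acid to phosphatidylinositol, and St3gal5 (0.82) for Alox5. Ptgs2 had the weakest neighbours, Bcl2a1a (0.75) and the chemokine Cxcl2 (0.72). Ptges3 had Ddb1 (0.84) and Ppp1r14b (0.83), and the sparse Ptges had Arg2 (0.93) and Rhov (0.91).

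The wider pathway was read from a list of 57 other genes, of which 54 were found and 15 reached a cluster mean of 100 CPM. These were 3 of 13 phospholipases and related genes, 3 of 8 other prostanoid enzymes and 5 of 16 other lipoxygenase and leukotriene genes. The rest were 4 of 14 receptors, with 0 of 3 transporters. Among phospholipases, the cytosolic Pla2g4a peaked in SAMC (128 CPM ± 93.5, n = 4), Pla2g7, which hydrolyses platelet-activating factor, in Mast (1472 ± 1126, n = 2) and the lysosomal Pla2g15 in stress_Micro (261 CPM). The thromboxane synthase Tbxas1 (246 CPM ± 96.8, n = 2) and Ptgds (236 ± 131, n = 2), a second prostaglandin D synthase, were highest in stress_Micro. The 2 libraries of this cluster are those with the shorter gene list. It also led the summed markers of oligodendrocytes (248 CPM), neurons (113 CPM) and erythrocytes (900 CPM), whose part in these values was not tested. Akr1b3, an aldose reductase with prostaglandin F synthase activity, was highest in Tc (175 CPM). Of the leukotriene enzymes, Mgst1 (838 ± 527 CPM) and Mgst2 (127 CPM), a microsomal enzyme able to make leukotriene C4, peaked in Granulo_2. Cyp4f18, which degrades leukotriene B4, peaked in Granulo_1 (464 CPM), the peroxidase Gpx4 in ILC2 (889 CPM) and Cotl1, which binds 5-lipoxygenase, in Macro_1 (719 CPM, 1 library).

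The receptors past 100 CPM had their highest means in Granulo_2, ILC2 and stress_Myeloid. The leukotriene B4 receptor Ltb4r1 peaked in Granulo_2 (342 CPM ± 118) and then ILC2 (226 CPM), Fpr2, a receptor of formyl peptides and lipoxin A4, in Granulo_2 (275 ± 99.8). The prostacyclin receptor Ptgir peaked in ILC2 (145 ± 59.5) and the prostaglandin E2 receptor Ptger4 in stress_Myeloid (187 CPM) and mDC2 (163 CPM). Ptger3, another prostaglandin E2 receptor, reached 92.0 ± 27.8 CPM (n = 2) in Mast.

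The pathway genes called in each comparison are given beside the share of all genes called, higher and then lower. In SAMC against macrophage clusters 0 of 27 rose and 2 fell (all genes 0.398% and 1.95%), the leukotriene receptors Ltb4r1 (−1.68, adjusted p = 0.00978) and Cysltr1 (−1.15, 0.00383). In microglia against macrophage clusters 2 of 29 rose (all genes 4.66% and 5.77%), the monoacylglycerol lipase Mgll (+2.75) and Ggt5 (+1.22), which cleaves leukotriene C4. There 7 fell, Pla2g7 (−2.79), Pla2g2d (−1.39), Mgst1 (−2.62), Cyp4f18 (−2.37), Ptger4 (−1.62), Ltb4r1 (−3.42) and Fpr2 (−4.46). In granulocyte against macrophage clusters 7 of 29 rose (all genes 7.63% and 9.36%), Ptgr1 (+1.67), Mgst1 (+3.57), Mgst2 (+6.82), Ptgir (+2.33), Ltb4r1 (+3.86), Fpr2 (+4.46) and the prostaglandin exporter Abcc4 (+1.33). Of the same genes 6 fell, Pla2g15 (−1.87), Pla2g2d (−4.00), Tbxas1 (−1.51), Cbr1 (−1.58), Ptger4 (−1.83) and Cysltr1 (−1.05). The leukotriene B4 receptor Ltb4r1 was thus lower in microglia and SAMC and higher in granulocyte clusters, each against macrophage clusters.

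Granulo_2 against Granulo_1 gave 6 of 20 higher (all genes 15.6% and 18.9%), Mgll (+5.38), Mgst1 (+1.40), Mgst2 (+7.44), Ggt5 (+2.52), Ltb4r1 (+1.97) and Fpr2 (+3.09). It gave 6 lower, Pla2g7 (−1.40), Tbxas1 (−1.73), Akr1b3 (−2.96), Mgst3 (−2.60), Cysltr1 (−2.07) and the leukotriene C4 exporter Abcc1 (−1.59). In mDC2 against mDC1, 3 of 17 rose (all genes 5.94% and 3.09%), Pla2g7 (+1.38), Ptger4 (+1.48) and Ltb4r1 (+1.40), and none fell. In ILC2 against Tc 4 of 12 rose (all genes 6.78% and 6.93%), Gpx4 (+1.33), Ptgir (+6.28), Ltb4r1 (+4.91) and Cysltr1 (+3.53), and Mgst2 fell (−1.10). Thus 3 receptors of the pathway were higher in ILC2 while none of the listed synthesis genes was called there. Mast cells had 3 of 28 higher (all genes 5.16% and 10.2%), Pla2g7 (+1.82), Cbr1 (+1.67) and Ptger3 (+7.08). They had 7 lower, of which Pla2g2d, Tbxas1, Ltb4r1 and Cysltr1 had no UMI there and Mgst1, Mgst3 and Cyp4f18 (−2.58) did. At 24 h against control 0 pathway genes were called in any class, of 35, 26, 21, 19, 20 and 18 tested in the order given above.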

How the data were processed

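Processed gene-by-cell counts were deposited by the authors as 1 matrix of raw UMI counts per library, made with Cell Ranger 6.0 on mm10 per the submitters' processing notes; the annotation release is not given in the sources used here. Per the study's methods, the authors filtered cells by gene number and mitochondrial share, removed doublets with scDblFinder, and clustered in Seurat after SCTransform and Harmony; their deposited cluster labels were used as given, and barcodes without a label were left out. The members, gene lists and tests were chosen with earlier results of these data known.

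Counts of labelled cells were summed per library and cluster over the 30406 shared genes. Clusters with at least 30 cells in a library were used (alternative 10). Means and SDs weight libraries equally, intervals are 95% exact Poisson or binomial and cover counting error only, and shares were also computed after thinning to 1000 UMIs (seed 20220217). Summed counts were tested, two-sided, with edgeR 4.0.16 in R 4.3.3 (filterByExpr, TMM, robust quasi-likelihood fit), with tissue as covariate for 24 h against control and library as block between clusters of the same libraries; called means a Benjamini-Hochberg adjusted p under 0.05 and at least a 2-fold change. The 24 h fits had 7 libraries (3 residual degrees of freedom) or, for dendritic and granulocyte clusters, 6 (2 residual degrees); brain 72 h entered none of them. DESeq2 1.42.0, library-size scaling, no filter, no block and leaving out libraries were alternatives. Testing was checked on simulated data. Python 3.11.15, numpy 2.4.6, pandas 2.3.3, scipy 1.17.1 and matplotlib 3.10.9 were used. Gene positions are GENCODE's and promoter windows RefSeq's, both on GRCm38.

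Named were the 10 listed genes, pathway genes called in a comparison or with a cluster mean of at least 100 CPM, and for each listed gene the 2 genes most correlated over 21 clusters, among genes with a cluster mean of at least 50 CPM; Ptger3 is also named by its call, and 1 gene of the correlation rule is not reported here. Naming was by symbol, and Alox5ap had no promoter window in the table used here.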

Additional observations from a re-analysis of the deposited data

Results flagged for a closer look

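In the macrophage clusters, Ptgs1 and Ptgs2 were noted because both brain pairs moved one way between control and 24 h and the pia pair the other. The 24 h to control ratio of Ptgs1 was 0.721 and 0.238 in the brain pairs and 1.33 in pia, and that of Ptgs2 was 4.71 and 7.37 in brain and 0.554 in pia. The difference between tissues was not tested, and the brain pairs share 1 control library. Within pia clusters the ratio of Ptgs1 was 1.31 in CAM_1, 0.947 in CAM_2 and 1.09 in Macro_2.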

How the results depend on the processing

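No paired analysis was possible because only brain 24 h has a replicate 2, so replicate numbers pair no libraries; clusters were compared within libraries by the library block and 24 h with control by the tissue term. For 24 h against control the count of listed genes called was 0 in edgeR. Over all cells and in macrophage clusters it was 1 in DESeq2, 1 without the filter on low counts and 1 with pia and dura only, each time Hpgd, and 0 to 1 when a library was left out. In microglia clusters leaving out a library gave 0 to 1 (Hpgd without the second brain 24 h library, −1.01, adjusted p = 0.00177), in dendritic clusters 0 to 1 (Hpgds without the first brain 24 h library), and in granulocyte clusters 0 to 2 (without the first brain 24 h library Hpgd −3.31, adjusted p = 7.84e-06, and Ltc4s −2.79, 0.00197). Lymphoid clusters and dura against pia stayed at 0 in those fits.

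Microglia against macrophage clusters called 2 listed genes, 0 without the library block, 0 with the longer gene list only, 3 with library-size scaling (Ptgs1, Hpgds and Ltc4s) and 1 to 2 without a library. SAMC called 2, then 1 in DESeq2, 5 without the filter, 5 with at least 10 cells, 0 without the block, 0 with the longer list and 1 to 4 without a library. Granulocyte against macrophage clusters called 6, then 4 without the block and 4 to 6 without a library. Granulo_2 against Granulo_1 called 5, then 2 without the block and 4 to 6 without a library, where Ptgs2 was lost without brain 72 h and Ltc4s gained without pia 24 h or dura 24 h. mDC2 called 1, then 2 in DESeq2 and 2 with the longer list, Mast 5, then 3 in DESeq2, and ILC2 0, then 2 without the filter, 1 with at least 10 cells and 0 to 1 without a library. The leading cluster by mean CPM of the 10 listed genes held for 5 by medians, 5 after thinning and 7 to 10 without a library. Ltc4s reversed in Granulo_2 against Granulo_1 with the longer list (−0.31 in place of +0.99) and in microglia against macrophage clusters in pia only (−0.10 in place of +0.75), and Hpgd in dura against pia without dura 24 h (−0.15 in place of +0.42, and 0.88 without control dura). The causes were not tested.

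Over all genes, library-size scaling turned 957 higher and 1155 lower into 552 and 2285 in Granulo_2 (median shift −0.71), 515 and 637 into 782 and 466 in microglia, 415 and 216 into 329 and 416 in mDC2, 359 and 367 into 312 and 479 in ILC2, and 776 and 952 into 674 and 1161 in granulocyte clusters. Without the block microglia gave 12 and 64, SAMC 0 and 0 in place of 38 and 186, granulocyte clusters 374 and 425, Granulo_2 467 and 525, mDC2 142 and 36 and ILC2 179 and 141. With the longer list microglia gave 152 and 422, SAMC 1 and 0 and Granulo_2 616 and 756. DESeq2 gave 351 and 418 in Mast in place of 498 and 984, and 33 and 92 in SAMC, which gave 51 and 295 without the filter, 49 and 304 with at least 10 cells, 58 and 298 without the first brain 24 h library and 35 and 99 without brain 72 h. For 24 h against control, where edgeR called 0 genes, leaving out the second brain 24 h library gave 17 and 35 over all cells, 74 and 62 in macrophage, 94 and 47 in microglia, 44 and 49 in dendritic, 3 and 0 in granulocyte and 16 and 28 in lymphoid clusters, and leaving out the first gave 64 and 66 in dendritic and 60 and 41 in granulocyte clusters. Pia and dura only gave 132 and 163 over all cells, 105 and 120 in macrophage, 36 and 51 in dendritic and 16 and 26 in lymphoid clusters, and no filter 168 and 16, 56 and 17, 11 and 0, 4 and 3, 6 and 0 and 7 and 1 in the order of classes above. Dura against pia gave 50 and 9 without the filter and 48 and 31 without the second brain 24 h library; other omissions gave at most 10 calls in these comparisons. The longer list, pia only, and pia and dura only were chosen after seeing the data. The alternative of at least 10 cells was not run where it kept the same libraries, nor was leaving out a library for Mast.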
